A study of Homo sapiens with 6 samples.

Results

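The stretch of the long arm of human chromosome 16 from the start of NPIPB15 to the start of SLC7A5 held 56 genes with a probe set of their own on the arrays, of 11963 such genes in all, and 84 of 19064 probe sets. Its genes were taken by position alone, as every named gene that starts between those points in the RefSeq gene table (GRCh38.p14), but the stretch itself had been noticed because its genes differed between the isolates and the parental line on these same arrays. Values of each isolate against the parental line are therefore a description of the segment and carry no test. The difference between the isolates was not used to choose it, but its genes were chosen with earlier results known. The segment was picked on its difference from the parental line, so the values of its flanks there are also a description. Partner genes encoded elsewhere were not chosen by that rule.

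Total RNA was measured on 6 Affymetrix expression arrays, 2 for each of 3 populations of MDA-MB-231, a mesenchymal-like human line of triple-negative breast cancer. The populations were the parental line and S1a and S1b, labelled as isolated populations of seeder cells, a name for circulating cancer cells that re-enter an established tumour. The labels give no genetic change or drug for any of them, and all were grown subconfluent in DMEM with 10% serum. S1a and S1b are each 1 population, no isolate of non-seeding cells was measured, and the replicate arrays are not tied to separately named cultures, so errors and p-values cover only the spread between these arrays. Values are MAS5 signal units on a linear scale. An SD rests on the 2 arrays of a population. An SE comes from limma's variance, which is shared by the 3 populations of 2 arrays and drawn towards that of genes of like signal.

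A chromosome segment that is gained or lost changes the template for many unrelated genes at once, and extra copies commonly raise RNA from most active genes of a segment by a modest amount, while genes under strong control of their own can depart from it. The distal long arm of chromosome 16 is often altered in breast cancer, and MDA-MB-231 is an aneuploid line. The arrays measured RNA, and DNA copy number was not measured. The genes of this segment do unrelated jobs: SLC7A5 is the light chain of a transporter for large neutral amino acids, COX4I1 is a subunit of cytochrome c oxidase, GINS2 belongs to the replicative helicase, CENPN to the inner kinetochore, TERF2IP to the telomere complex shelterin, and MAP1LC3B and GABARAPL2 mark autophagosome membranes.

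Several of the measured genes share a start region. A RefSeq promoter table held an entry for 44 of the 56 genes, 37 of them bright enough to test. It showed 4 head-to-head pairs in which both genes were tested, with starts 108 to 329 bases apart. The sequence between the starts of each pair is shown because such genes share 1 stretch of DNA and can still be compared for RNA. For CMC2 and CENPN the 250 bases before CENPN are given. The 150 bases before CRISPLD2, the gene that departed most from its neighbours, and before SLC7A5, the last gene, are given for comparison. Capitals mark matches on either strand to the GC box GGGCGG, the CCAAT box, the ETS core CCGGAAG, the TATA box TATAAA and the E box CACGTG. Positions are on GRCh38.p14, plus strand unless stated.
KARS1/TERF2IP, chr16:75647666-75647772: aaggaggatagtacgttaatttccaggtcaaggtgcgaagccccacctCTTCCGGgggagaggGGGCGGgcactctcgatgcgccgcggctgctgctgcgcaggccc
CMC2/CENPN, chr16:81006964-81007213: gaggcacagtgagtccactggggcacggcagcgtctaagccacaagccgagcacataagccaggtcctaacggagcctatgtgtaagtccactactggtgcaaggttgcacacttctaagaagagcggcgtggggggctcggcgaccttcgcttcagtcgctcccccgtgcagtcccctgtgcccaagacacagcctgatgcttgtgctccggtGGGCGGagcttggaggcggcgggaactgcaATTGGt
EMC8/COX4I1, chr16:85799545-85799694: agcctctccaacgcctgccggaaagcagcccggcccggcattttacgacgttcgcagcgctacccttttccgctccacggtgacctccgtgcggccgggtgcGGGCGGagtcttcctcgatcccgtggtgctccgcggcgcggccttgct
FBXO31/MAP1LC3B, chr16:87392122-87392335: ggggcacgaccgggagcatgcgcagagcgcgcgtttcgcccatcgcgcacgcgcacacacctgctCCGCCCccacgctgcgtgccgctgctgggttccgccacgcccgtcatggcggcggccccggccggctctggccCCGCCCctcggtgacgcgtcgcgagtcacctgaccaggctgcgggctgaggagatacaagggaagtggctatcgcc
CRISPLD2, chr16:84819835-84819984: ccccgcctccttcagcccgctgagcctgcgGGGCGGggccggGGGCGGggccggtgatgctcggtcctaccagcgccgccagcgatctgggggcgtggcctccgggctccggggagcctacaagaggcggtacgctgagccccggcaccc
SLC7A5, chr16:87869508-87869657, minus strand: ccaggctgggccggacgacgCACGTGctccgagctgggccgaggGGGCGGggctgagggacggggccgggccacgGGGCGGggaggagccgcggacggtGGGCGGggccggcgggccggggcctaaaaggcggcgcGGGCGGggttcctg

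All 6 stretches held at least 1 GC box, and CRISPLD2 did not differ from the others in that. In windows of 300 bases, from 250 before to 50 after each start, the GC box was found for 33 of the 37 tested genes (89.2%), against 66.3% of the promoters of all tested genes and 45.0% of all 35116 promoters. The ETS core was found for 17 (45.9%), against 16.8% and 10.3%. The CCAAT box was found for 14 (37.8%), against 35.4% and 34.6%. The E box was found for 2 (5.41%), against 9.66% and 7.26%. TATAAA was found for 0 of 37, against 6.34% and 11.5%. These shares describe letters in a window, count 1 window per gene for the segment, and were not tested.

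Signals were compared as log2(signal + 3.95), and a gene was tested where its mean over the 6 arrays reached 44.0 units, which left 7791 genes over the genome and 41 of the 56 in the segment. A gene's value is that of its brightest probe set. Of the 41, all 4 isolate arrays lay above both parental arrays for 27 genes and below both for 4, and the arrays overlapped for 10. Over all 7791 genes the same held for 27.0% above and 29.7% below. With limma's adjusted p under 0.05 for the mean of both isolates against the parental line, 27 of the 41 were called higher and 1 lower, beside 22.7% and 23.5% of all genes (46.2% in either direction). Against the parental line S1a alone gave 26 higher and 1 lower (19.4% and 19.9% of all genes, 39.2% in either direction). S1b alone gave 26 higher and 2 lower (20.7% and 20.9%, 41.6% in either direction). Because the segment was picked on this contrast, nothing further is read from these counts.

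The median difference of the 41 genes was 0.72 on the log2 scale for the mean of both isolates (quartiles 0.12 and 0.80), 0.56 for S1a and 0.62 for S1b, while the medians over all genes were -0.03, -0.03 and -0.02. The isolates share their parental arrays, so their values are set side by side only. On the linear scale the median ratio of isolate to parental signal was 1.64, with quartiles 1.10 and 1.75. For 30 of the 41 genes the ratio lay from 1.2 to 2.5, for 3 from 1 to 1.2, for 8 below 1 and for 0 above 2.5. The array-by-array medians of the segment, as differences from the parental mean, were -0.02 and 0.02 for the parental line, 0.59 and 0.63 for S1a and 0.57 and 0.58 for S1b. Rescaling the arrays to a common median moved the median of all genes from -0.03 to 0.16. Relative to the median of all genes the segment median was 0.74 for the mean of both isolates. That is at the upper end of the range of 0.56 to 0.74 over the alternative settings and fits without 1 array. Under the 4 scalings compared, 33 of the 41 genes were above 0 in each, 6 were below 0 in each, and MLYCD and FBXO31 changed sign.

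**Figure D1:**
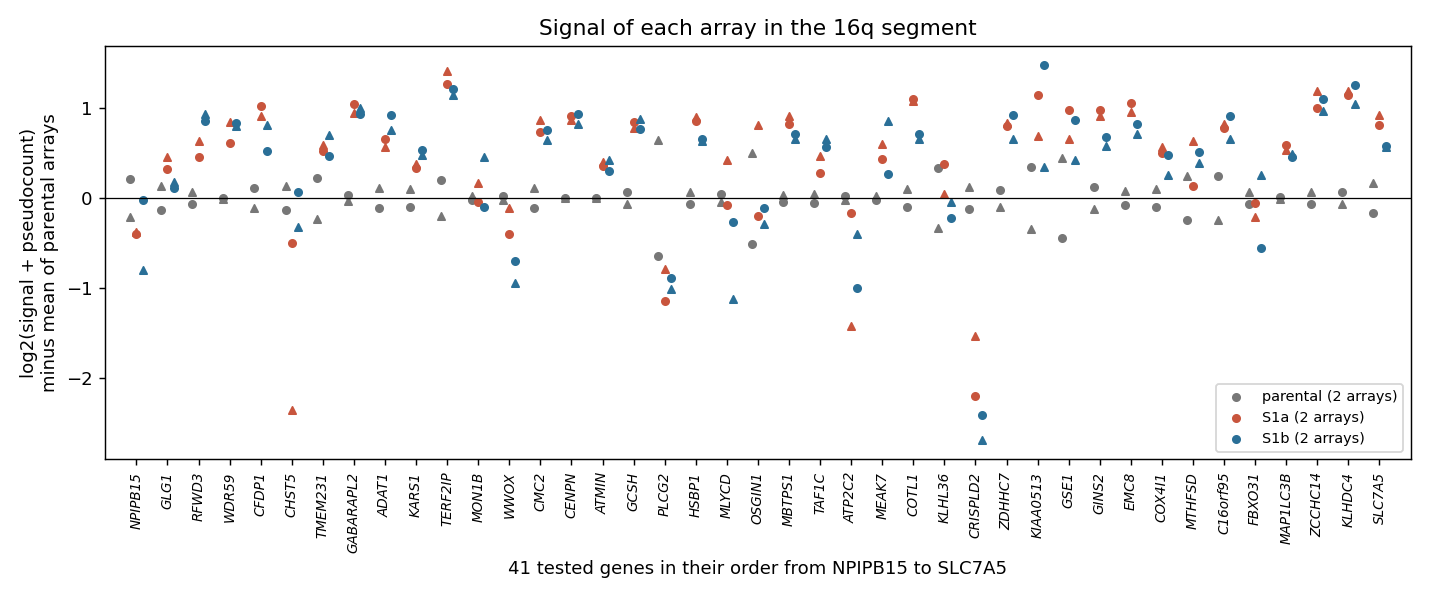
Signal on each array for the 41 tested genes in gene order, as log2(signal + pseudocount) minus the mean of the parental arrays. Circles are replicate 1 and triangles replicate 2 of each population; the isolate arrays lie above the parental arrays for 27 genes and below them for CRISPLD2, PLCG2, WWOX and ATP2C2.

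Of 7 tested genes for chromosome maintenance and replication, 6 had all isolate arrays above the parental arrays. Their differences ran from -0.14 for FBXO31 to 1.26 for TERF2IP, with a median of 0.79. TERF2IP, also called RAP1, read 473 and 356 units on the parental arrays, 993 and 1099 on S1a and 953 and 912 on S1b. Its difference of 1.26 ± 0.12 (SE, mean of both isolates minus parental) was the highest among the 41. CENPN, which binds centromeric nucleosomes, gave 1704 and 1713, then 3206 and 3131 in S1a and 3276 and 3018 in S1b (0.88 ± 0.071). Here the parental arrays agreed closely and the isolate populations overlapped each other.

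GINS2, a subunit of the helicase that opens DNA at replication forks, was measured at 1158 and 977 units in the parental line, 2092 and 2009 in S1a and 1707 and 1596 in S1b (0.79 ± 0.088). CFDP1, a chromatin protein required in craniofacial development, was at 713 and 608, at 1339 and 1239, and at 948 and 1156 (0.81 ± 0.11). Both were highest in S1a, with S1b between S1a and the parental line. RFWD3, a ubiquitin ligase of the DNA damage response, went the other way between the isolates, with 278 and 306 units in parental, 402 and 453 in S1a and 532 and 559 in S1b (0.72 ± 0.11). ATMIN, a cofactor of the kinase ATM, was higher by 0.37 ± 0.089, from 541 and 543 units to 696 and 715 in S1a and 671 and 726 in S1b. The other bright probe set of ATMIN gave 0.72, also with all isolate arrays above the parental arrays. The remaining gene, FBXO31, an F-box protein, was dim: its arrays read 57.6 and 63.5, 58.3 and 51.9, and 40.03 and 72.9 units, and they overlapped.

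Of the 5 tested genes for mitochondrial proteins, 4 were higher on every isolate array, and the list median was 0.45. GCSH, the carrier protein of the glycine cleavage system, gave 2550 and 2319 units in the parental line, 4385 and 4160 in S1a and 4156 and 4460 in S1b (0.82 ± 0.076). CMC2, which takes part in cytochrome c oxidase assembly, gave 1858 and 2163, then 3337 and 3656, then 3400 and 3135 (0.75 ± 0.086). For these 2 genes the isolates overlapped each other and stood clear of the parental line. COX4I1 was much brighter and differed less, with 6291 and 7193 units in parental, 9504 and 9948 in S1a and 9342 and 8046 in S1b (0.45 ± 0.09). KARS1, the lysyl-tRNA synthetase of both cytosol and mitochondria, was the brightest of the 41, at 9347 and 10706, then 12591 and 13028, then 14512 and 13892 (0.43 ± 0.082). MLYCD, malonyl-CoA decarboxylase, overlapped, with 63.0 and 59.2 units in parental, 57.5 and 83.3 in S1a and 50.3 and 26.0 in S1b.

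KARS1 and COX4I1 each had further probe sets above 44.0 units, and the second of each gave a larger difference. The second KARS1 probe set averaged 2651 ± 710 units (SD) in the parental line, 6203 ± 41.1 in S1a and 5992 ± 2.88 in S1b, a difference of 1.23. The second COX4I1 probe set differed by 0.68. Its dimmest probe set averaged 25.8 units in the parental line, under the 44.0 units needed for a value, and all its isolate arrays were above both parental arrays.

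Autophagy, secretory and protein turnover genes made up the longest list, with 11 tested genes, of which 10 had a difference above 0, 6 had all isolate arrays above and 1 had all below. The median was 0.52. GABARAPL2 read 1009 and 960 units on the parental arrays, 2034 and 1896 on S1a and 1886 and 1977 on S1b (0.98 ± 0.076). MAP1LC3B, the gene of LC3B, read 1339 and 1325, then 2004 and 1925, then 1835 and 1866 (0.52 ± 0.071). EMC8, a subunit of the complex that inserts proteins into the endoplasmic reticulum membrane, read 1471 and 1643, then 3227 and 3025, then 2759 and 2553 (0.89 ± 0.079). In all 3 the isolate arrays were above the parental arrays. GABARAPL2 and EMC8 lay above the segment's upper quartile of 0.80, and MAP1LC3B lay below its median of 0.72.

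MBTPS1, the Golgi protease that begins the release of SREBP transcription factors, gave 320 and 339 units in the parental line, 584 and 624 in S1a and 541 and 522 in S1b (0.77 ± 0.10). MEAK7, a lysosomal protein linked to mTOR signalling, gave 320 and 329, then 439 and 494, then 391 and 588 (0.54 ± 0.16). KLHDC4, a kelch protein, was dim in the parental line at 63.2 and 57.4 units and read 138 and 142 in S1a and 150 and 128 in S1b (1.16 ± 0.21). These 3 were also higher on every isolate array. GLG1, a Golgi sialoglycoprotein, was less clear, at 694 and 830, then 949 and 1043, then 822 and 862 units (0.27 ± 0.098), and 1 S1b array fell between the parental arrays. Its value turned to -0.12 when probe sets with shared-probe suffixes were left out, which exchanges the probe set used. The remaining bright probe set of GLG1 gave 0.35, with all isolate arrays above the parental arrays. MON1B, KLHL36 and OSGIN1 were dim, with differences of 0.12, 0.04 and 0.05 and overlapping arrays.

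On the list for amino acid transport and growth signalling, 3 of 5 tested genes were higher on all isolate arrays and 2 were lower on all. SLC7A5 read 3343 and 4192 units on the parental arrays, 6553 and 7081 on S1a and 5574 and 5567 on S1b (0.72 ± 0.094). COTL1, a protein that binds actin filaments, read 2757 and 3179, then 6342 and 6238, then 4861 and 4664 (0.89 ± 0.079). Both were highest in S1a and intermediate in S1b. WDR59, part of the GATOR2 complex that relays amino acid supply to mTOR, gave 154 and 153 units, then 236 and 277, then 277 and 269 (0.77 ± 0.14). The genes lower on this list, CRISPLD2 and PLCG2, are described with the exceptions.

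The list for transcription and chromatin had 6 tested genes, 4 of them higher on all isolate arrays and 1 lower, with a median of 0.75. It included genes whose products do other work, such as ZDHHC7, a palmitoyltransferase. HSBP1, which binds heat shock factor, read 2389 and 2609 units in the parental line, 4536 and 4661 in S1a and 3937 and 3890 in S1b (0.76 ± 0.071). ZDHHC7 read 793 and 695, then 1293 and 1330, then 1412 and 1169 (0.80 ± 0.099). ZCCHC14, a zinc finger protein, had one of the highest differences of the segment, with 211 and 232, then 446 and 509, then 478 and 436 units (1.06 ± 0.12). TAF1C, a subunit of the selectivity factor of RNA polymerase I, was at 163 and 175, then 205 and 235, then 252 and 269 (0.49 ± 0.15), while its other bright probe set gave -0.29. GSE1, a coiled-coil protein, overlapped, at 47.3 and 90.6, then 133 and 106, then 123 and 89.6 units.

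Among the tested genes of the remaining groups, ADAT1, a deaminase that edits transfer RNA, gave 333 and 389 units in the parental line, 568 and 534 in S1a and 687 and 611 in S1b (0.73 ± 0.11). TMEM231, a protein of the ciliary transition zone, gave 255 and 184, then 313 and 329, then 302 and 355 (0.57 ± 0.16). C16orf95 differed by 0.79 ± 0.17, but its other bright probe set gave -0.05. KIAA0513 averaged below 44.0 units in the parental line (44.2 and 26.1), with 79.8 and 57.3 in S1a and 102 and 44.3 in S1b, so the isolates were at least 1.61-fold higher on average, and its lowest isolate array was at the level of its highest parental array. MTHFSD overlapped, with a difference of 0.42 ± 0.26.

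Of the 41 genes, 8 had a difference below 0, and 7 of these had a parental mean under 120 units. CRISPLD2, which encodes a secreted protein that binds lipopolysaccharide, was the remaining one. It read 434 and 514 units on the parental arrays, 100 and 161 on S1a and 85.7 and 70.0 on S1b. Every isolate array lay far below both parental arrays, and both S1b arrays lay below both S1a arrays. The parental mean of 474 ± 57.0 units (SD) was 4.55 times the isolate mean, and the log2 difference was -1.86 ± 0.25 (SE) for S1a, -2.55 ± 0.25 for S1b and -2.20 ± 0.22 for both. CRISPLD2 had 1 probe set. Next to it in gene order, KLHL36, a kelch protein, was dim and differed by 0.04, while COTL1 beyond KLHL36 and ZDHHC7 on the other side differed by 0.89 and 0.80.

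**Figure D2:**
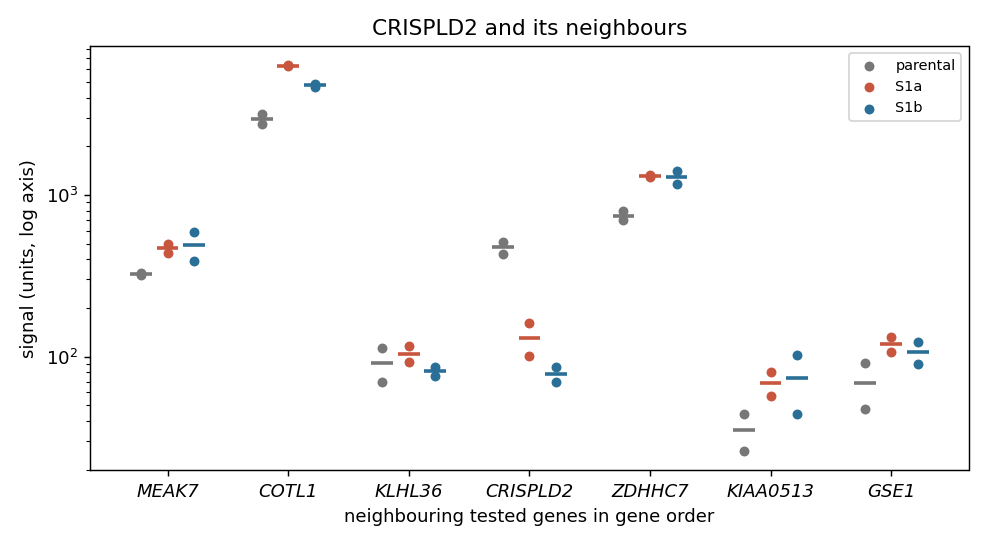
Signal in units on a log axis for CRISPLD2 and the 3 tested genes on each side of it, with a point per array and a bar at each population's mean. CRISPLD2 reads 434 and 514 units in the parental line and 70.0 to 161 in the isolates, while MEAK7, COTL1 and ZDHHC7 are higher on all isolate arrays; levels of different genes come from different probes and cannot be compared.

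The other genes with all isolate arrays below the parental arrays were dim. WWOX, an oxidoreductase gene that spans a common fragile site, gave 112 and 108 units in the parental line, 82.2 and 102 in S1a and 66.6 and 55.3 in S1b (-0.54 ± 0.25). Its other bright probe set gave -0.01. PLCG2, a phospholipase of immune receptor signalling, gave 60.6 and 153, then 41.8 and 54.3, then 50.7 and 46.1 (-0.95 ± 0.39). Its parental arrays disagreed, and the difference was -1.60 without parental replicate 1 and -0.31 without parental replicate 2. ATP2C2, a calcium and manganese pump of the secretory pathway, gave 63.2 and 61.3 units, then 55.1 and 20.9, then 29.3 and 46.5, so the parental mean was at least 1.42-fold higher. In the other exceptions the arrays overlapped: CHST5, a sulfotransferase, at -0.78 ± 0.51, NPIPB15 at -0.40 ± 0.28, MLYCD at -0.26 ± 0.37 and FBXO31 at -0.14 ± 0.35. CHST5 rested on 1 array, S1a replicate 2 at 10.1 units, beside 46.9 on the other S1a array and 61.4 and 74.98 in the parental line.

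The differences were not alike across brightness. With a parental mean of 1000 units or more, all 11 genes had every isolate array above the parental arrays, and their differences ran from 0.43 to 0.89 with a median of 0.76. From 100 to 1000 units, 14 of 20 genes did so, with a median of 0.65 and a range of -2.20 to 1.26. Under 100 units, 2 of 10 did so, and the median was 0.05. Over all tested genes the medians of the same classes were 0.00, -0.05 and 0.04. Dim probe sets carry more noise for their size, and whether the dim genes of the segment differ from the bright ones in the cells was not tested.

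**Figure D3:**
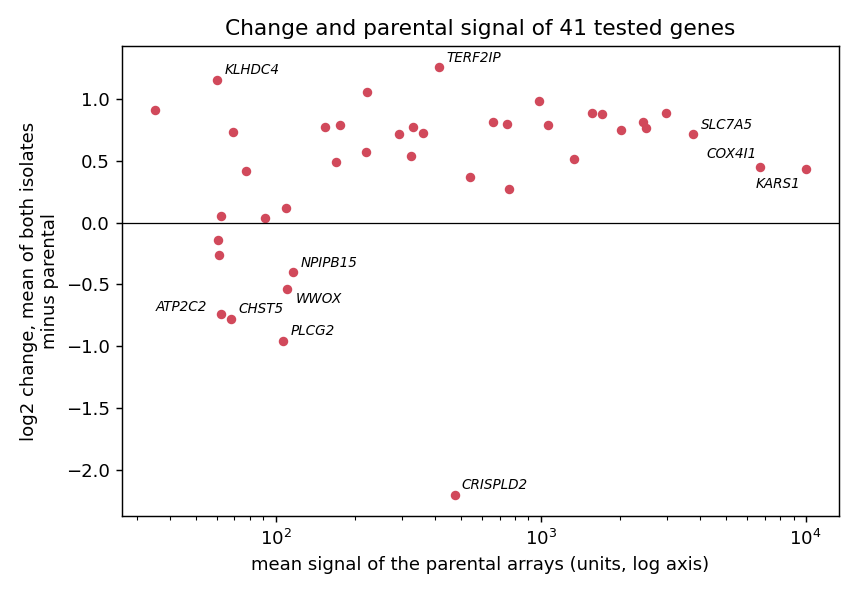
Difference of each of the 41 tested genes (mean of both isolates minus parental, log2) against its mean parental signal in units on a log axis. The 11 genes at 1000 units or more lie between 0.43 and 0.89, the dimmer genes scatter on both sides of 0, and CRISPLD2 stands apart at -2.20.

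The other 15 genes of the segment had mean signals of 1.79 to 20.7 units and were not tested. They were FA2H, CTRB2, SYCE1L, NUDT7, MAF, BCO1, HSD17B2, NECAB2, DNAAF1, WFDC1, IRF8, FOXF1, FOXC2, FOXL1 and JPH3, which include the forkhead genes and the immune factor IRF8. No array reached more than 40.3 units for any of them. All isolate arrays were above the parental arrays for 0 of these 15 and below for 2, HSD17B2 and FOXF1, and the arrays overlapped for 13. At this brightness neither a gain nor a loss of signal was measurable.

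Probe sets of 1 gene are further readings of it, not replicates. Of the 84 probe sets, 60 averaged at least 44.0 units, and among these all isolate arrays were above the parental arrays for 39 and below for 4. The share over all probe sets was not counted, and over all tested genes it was 27.0% above and 29.7% below. Of 17 tested genes with more than 1 such probe set, 13 had a single sign and 4 had both, namely C16orf95, GLG1, GSE1 and TAF1C. The probe sets of CENPN (0.60 and 0.88), HSBP1 (0.84 and 0.76) and MEAK7 (0.54 and 0.58) gave close values. Those of MBTPS1 (0.08 and 0.77) and MAP1LC3B (0.19 and 0.52) did not.

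The head-to-head pairs whose shared start regions are printed above gave these differences. CMC2 and CENPN were close, at 0.75 ± 0.086 and 0.88 ± 0.071. EMC8 stood at 0.89 ± 0.079 and COX4I1 at 0.45 ± 0.09. KARS1 stood at 0.43 ± 0.082 and TERF2IP at 1.26 ± 0.12, although the second KARS1 probe set reached 1.23. FBXO31 stood at -0.14 ± 0.35 and MAP1LC3B at 0.52 ± 0.071, and the FBXO31 error spans much of that gap.

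The difference between the isolates was not used to choose the segment and was tested gene by gene. Picking a stretch where the isolates differed from the parental line may favour a small median difference between them. In S1b minus S1a, limma called 0 of the 41 genes at an adjusted p under 0.05, beside 1.89% of all genes (0.462% higher and 1.42% lower in S1b). At an unadjusted limma p under 0.05 there were 8 of the 41, with 7 lower in S1b and RFWD3 higher, beside 1162 of all 7791 genes. The median was -0.02, against 0.01 for all genes. Of the 41 genes, 28 were below 0 and 13 above (31.7%), while 51.4% of all genes were above 0. Both S1b arrays lay below both S1a arrays for 15 of the 41 genes (36.6%) and above them for 5 (12.2%), while over all genes this held for 23.9% and 25.7%. The median of the segment thus differed little between the isolates with all arrays, but it was -0.14 without S1b replicate 1. A missed threshold with 2 arrays each does not show that single genes were equal.

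COTL1 had the smallest p. It was lower in S1b by 0.40 ± 0.091 on the log2 scale, with both S1b arrays below both S1a arrays, and its limma adjusted p was 0.0623. The call was made in 6 of 17 alternatives, with adjusted p from 0.00967 to 0.345, among them those without parental replicate 1 (0.00967) and without parental replicate 2 (0.00976). SLC7A5 was lower in S1b by 0.29 ± 0.11 (limma adjusted p = 0.237), and passed without parental replicate 1 (0.0465) and without parental replicate 2 (0.0466), within a range of 0.0465 to 0.699. For the others the limma adjusted p was 0.179 for GINS2 (-0.31 ± 0.10), 0.214 for HSBP1 (-0.23 ± 0.082), 0.224 for CRISPLD2 (-0.69 ± 0.25), 0.256 for EMC8 (-0.24 ± 0.092), 0.287 for CFDP1 (-0.30 ± 0.12) and 0.231 for RFWD3 (0.35 ± 0.13). In all of these the arrays of the isolates did not overlap. CHST5, which averaged under 44.0 units in S1a, and GLG1 (-0.24 ± 0.11) complete the 10 smallest p-values, with limma adjusted p of 0.340 and 0.363.

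**Figure D4:**
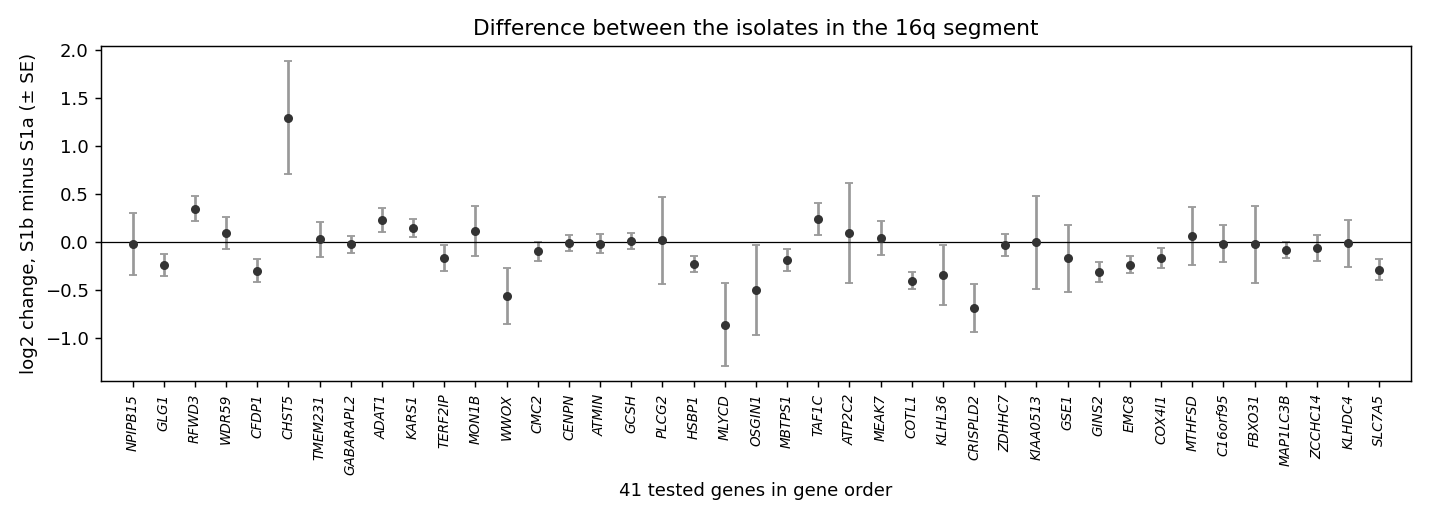
S1b minus S1a on the log2 scale with its SE for the 41 tested genes in gene order. COTL1 at -0.40, SLC7A5 at -0.29 and GINS2 at -0.31 lie below 0 and RFWD3 at 0.35 above, and none passed the threshold after adjustment.

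The ends of the segment did not coincide with the ends of the higher signal. At the proximal end, the 3 tested genes just inside were NPIPB15 (-0.40), GLG1 (0.27) and RFWD3 (0.72), and of these only RFWD3 had all isolate arrays above the parental arrays. The 3 tested genes just outside, DHODH, TXNL4B and DHX38, differed by -0.16, 0.33 and 0.28. For TXNL4B all isolate arrays were also above, with 158 and 146 units in the parental line and 179 to 213 in the isolates, and for the others the arrays overlapped. At the distal end the last genes inside were ZCCHC14 (1.06), KLHDC4 (1.16) and SLC7A5 (0.72). The first outside were BANP (0.46, arrays overlapping), CYBA (0.27) and MVD, an enzyme of cholesterol synthesis, which averaged 27.0 units in the parental line and was at least 2.84-fold higher in the isolates.

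Beyond SLC7A5 the signal stayed higher. The 19 tested genes from there to the end of the long arm had a median difference of 0.61, 16 were above 0, and 11 were called higher and 0 lower by limma at an adjusted p under 0.05, beside 22.7% and 23.5% of all genes. Examples were APRT (1.09), CDT1 (1.06), TRAPPC2L (0.92), ANKRD11 (0.89) and TCF25 (0.79). PIEZO1 (-0.03), TUBB3 (-0.08) and CPNE7 were the 3 below 0, and CPNE7, which averaged under 44.0 units in the isolates, was at least 1.45-fold higher in the parental line. On the other side, the 106 tested genes of the long arm before NPIPB15 had a median of 0.06, with 24 called higher and 14 lower, and the 194 genes of the short arm a median of 0.12, with 54 and 25. A running median of 9 genes reached at most 0.41 on the short arm and 0.31 on the long arm before NPIPB15, lay between 0.05 and 0.79 within the segment and between 0.61 and 1.06 after it. Its lowest point in the segment was centred on ATP2C2, in a stretch with several dim genes.

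**Figure D5:**
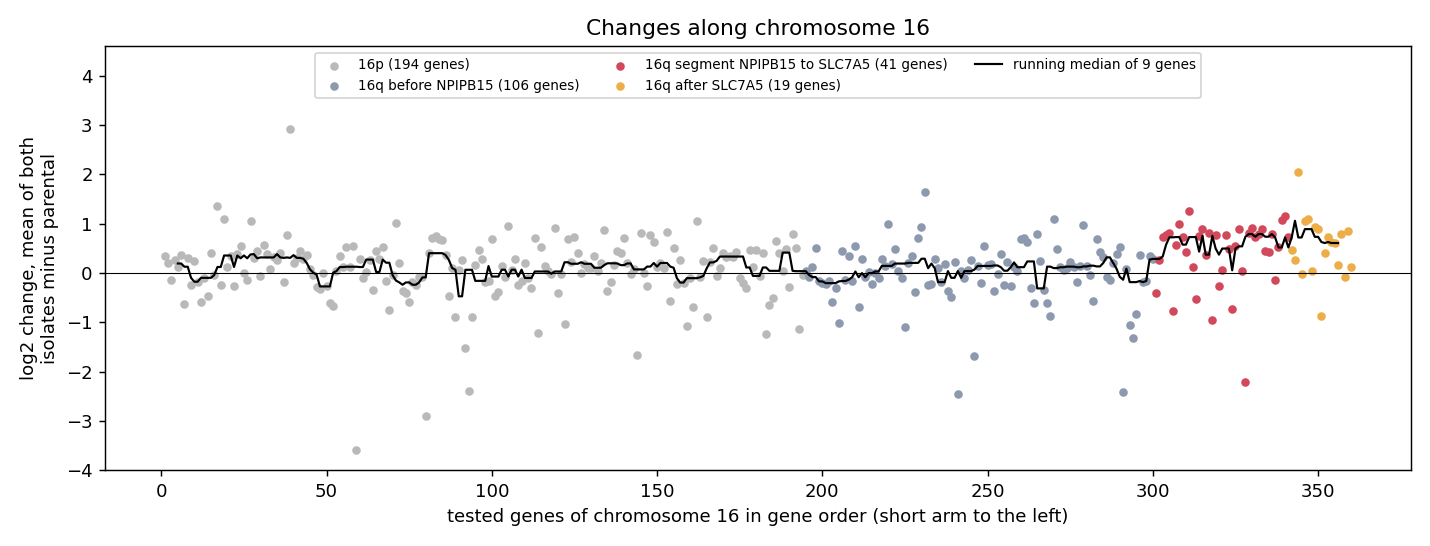
Difference of each tested gene of chromosome 16 (mean of both isolates minus parental, log2) in gene order, with the running median of 9 genes as a line. The line stays at or below 0.31 on the long arm before NPIPB15, reaches 0.79 in the segment and remains at 0.61 to 1.06 after SLC7A5.

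Other stretches noticed on these arrays differed from it in direction or between the isolates. The segment of chromosome 20 from MAVS to PYGB, also with 41 tested genes, had a median of -0.06 against the parental line, with 10 genes called higher and 12 lower (22.7% and 23.5% of all genes). Its median was -0.44 in S1b minus S1a, where 11 genes were called lower, beside 1.42% of all genes. The segment of chromosome 7 from TNS3 to RCC1L had a median of -0.70, with 6 of 41 genes called higher and 24 lower. It was lower in both isolates, with medians of -0.57 for S1a and -0.76 for S1b. In S1b minus S1a its median was -0.09, with 1 call, where 1.89% of all genes were called. In the same contrast the 16q segment had 0 calls and a median of -0.02. The difference between segments was not tested.

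Partner proteins encoded outside the segment show whether the rest of a complex moved with its 16q member. Of 58 listed partners, 45 were tested, and 17 rose and 8 fell in the mean of both isolates (limma adjusted p under 0.05), beside 22.7% and 23.5% of all genes. Their median was 0.08. The number called dropped from 25 to 15 without S1a replicate 1. The 16q members of these complexes all had differences above 0, from 0.43 to 1.26. The calls of COX5A, COX6C, COX8A, GINS4, TINF2, MIOS, SEC13, EMC6 and EMC9 each ended in 6 to 10 of their 17 or 18 alternatives.

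SLC3A2, the heavy chain that carries SLC7A5 to the cell surface, read 1519 and 1700 units in the parental line, 2852 and 2844 in S1a and 2068 and 2184 in S1b. All isolate arrays were above the parental arrays, and it rose by 0.61 ± 0.076 (limma adjusted p = 0.000143, with 0.00670 the highest in any of 17 alternatives). Like SLC7A5 it was lower in S1b than in S1a, by 0.42 ± 0.088 (limma adjusted p = 0.0472). That call ended in 10 of 17 alternatives, among them leaving out any 1 of the 4 isolate arrays (adjusted p 0.151 to 0.287).

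Partners of GINS2 in the replicative helicase went both ways, with 5 of 10 rising and 1 falling. MCM5 rose by 0.63 ± 0.082 (limma adjusted p = 0.000194), from 903 and 987 units to 1520 and 1657 in S1a and 1385 and 1309 in S1b. GINS1, which sits in the same complex of GINS proteins as GINS2, fell by 0.57 ± 0.075 (limma adjusted p = 0.000217), from 1811 and 1816 units to 1506 and 1407 in S1a and 1053 and 1004 in S1b. GINS2 and GINS1 therefore had opposite directions. GINS1 is encoded on chromosome 20, which also holds the segment from MAVS to PYGB. GINS3, another member and itself on chromosome 16 before the segment, had a difference of -0.19 and was not called.

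For the other complexes, 9 partners of COX4I1 in cytochrome c oxidase gave 2 rises and 3 falls. COX7A2 fell by 0.90 ± 0.087 (limma adjusted p = 2.82e-05), from 10850 and 11046 units to 5572 and 5702 in S1a and 6700 and 5528 in S1b. The falls of COX7B and COX8A were not called after median centring. Of 5 shelterin partners of TERF2IP, POT1 fell by 0.57 ± 0.093 (limma adjusted p = 0.00077) and TINF2 rose by 0.48 ± 0.16 (limma adjusted p = 0.033), a call that ended in 6 of 17 alternatives. TERF2, the direct partner of TERF2IP and also on chromosome 16 before the segment, had a difference of 0.13 and was not called. Among 4 tested partners of CENPN, 2 rose and 1 fell. CENPA rose by 0.35 (limma adjusted p = 0.0146), a call that ended without S1a replicate 1 (0.0571). CENPM rose by 0.33 (limma adjusted p = 0.0175), a call that ended in 4 of 18 alternatives, 3 of them without parental replicate 2 (0.0957), S1a replicate 1 (0.0617) or S1b replicate 1 (0.0551). CENPI fell by 0.79 ± 0.12 (limma adjusted p = 0.000562).

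Of 5 tested members of the multi-tRNA synthetase complex that holds KARS1, RARS1 rose by 1.25 ± 0.18 (limma adjusted p = 0.000324) and LARS1 by 0.66 ± 0.079 (limma adjusted p = 0.000106). IARS1 fell by 0.37 in the same test (limma adjusted p = 0.00305), which was not called after median centring. Of 3 tested GATOR2 partners of WDR59, 2 rose and 1 fell, and of 6 tested partners of EMC8, 2 rose and 0 fell. SEH1L of GATOR2 rose by 0.63 ± 0.18 (limma adjusted p = 0.0162), a call that ended without parental replicate 2 (adjusted p = 0.128). Neither tested partner of GCSH was called. Rises and falls stood side by side in 6 of the 9 partner lists, while 22.7% of all genes were called higher and 23.5% lower. After median centring 22 partners were called higher and 4 lower, so the mix depended on the scaling.

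The labelled cell type was checked on its markers. VIM, CD44 and AXL were bright on all arrays, while the luminal markers ESR1, PGR and CDH1 were dim and KRT19 and EPCAM were present. Of the leukocyte markers with a probe set, 1 of 3 reached 44.0 units on average, of the fibroblast markers 2 of 4 and of the endothelial markers 0 of 3. Summed signals of the fibroblast markers were 294 to 344 units in the parental line, 182 to 205 in S1a and 174 to 187 in S1b, and those of the leukocyte markers 139 to 143, 74.7 to 93.4 and 48.0 to 63.0. The endothelial sum went the other way, at 39.8 to 59.6 units in the parental line, 102 to 104 in S1a and 66.3 to 67.7 in S1b, with each marker averaging under 44.0 units over the 6 arrays. GAPDH control probe sets at the 3' and 5' ends gave signal ratios (3' over 5') of 1.06 and 1.09 on the parental arrays and 0.976 to 0.998 on the isolate arrays. The part of these differences in the results was not tested. In such bulk samples a change in the mix of cells and a change in RNA per cell cannot be told apart.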

How the data were processed

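The authors deposited intensity values, a linear MAS5 signal for each probe set on each array; MAS5 is named by the submitters' processing notes, and its version is not given in the sources used here. As the values show, the mean of each array without its highest and lowest 2% lay between 499.8 and 499.9, and medians ran from 87.6 to 106. Of 22277 probe sets, 62 controls were left out; a platform annotation gave 1 symbol for 19064, several for 1043 and none for 2108. Symbols were updated through gene identifiers in RefSeq (GRCh38.p14), which matched 19052 probe sets and gave gene order; the files name no build, so gene coordinates are not printed apart from those of the RefSeq sequences.

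With limma 3.58.1 (R 4.3.3), 3 group means were fitted over all 6 arrays to log2(signal + 3.95), the pseudocount being the 10th percentile of all signals, with variances that follow the mean (7 prior and 3 residual degrees of freedom). A gene took its brightest probe set, and genes under the 40th percentile of mean signal (44.0 units) were left out. Adjusted p-values are Benjamini-Hochberg over the 7791 genes of a contrast. A group under 44.0 units gives a bound, the brighter mean over 44.0. The alternatives were another pseudocount, filter, scaling, probe set rule or variance model, a replicate block, and each array left out.

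The segment, its lists and the rule for named genes were chosen with earlier results of these data known. The rule named the 10 highest differences, every difference below 0, the 10 smallest p-values between the isolates, 3 genes on each side of each end, up to 4 genes per role list by signal and up to 3 partners per complex by p. CDC45, TERF2, GINS3 and other genes outside it were chosen after their values were seen. The number of arrays, 2 per population, limits the precision.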

Additional observations from a re-analysis of the deposited data

Results flagged for a closer look

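For 3 partners of 16q genes, each encoded elsewhere, the 2 isolates differed from each other by limma's test of that difference (S1b minus S1a). SLC3A2, the heavy chain of the SLC7A5 transporter, was lower in S1b, with a log2 difference of -0.42 ± 0.088 (SE; limma adjusted p = 0.0472); its arrays read 2852 and 2844 units in S1a and 2068 and 2184 in S1b. GINS1, a subunit of the same complex as GINS2, had a difference of -0.50 ± 0.087 (limma adjusted p = 0.0246), with 1506 and 1407 units in S1a and 1053 and 1004 in S1b. GINS1 is encoded on chromosome 20, where the segment from MAVS to PYGB had a median of -0.44 in the same contrast. Whether GINS1 moved with that segment was not tested. CDC45, the helicase cofactor that joins the GINS complex, had -0.54 ± 0.11 (limma adjusted p = 0.0404), with 990 and 1162 units in S1a and 751 and 725 in S1b.

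In all 3 genes both S1b arrays lay below both S1a arrays. The calls were fragile: leaving out any 1 of the 4 isolate arrays ended each of them, with adjusted p of 0.151 to 0.287 for SLC3A2, 0.108 to 0.216 for GINS1 and 0.101 to 0.334 for CDC45. Of the alternatives tried, 10 of 17 ended the SLC3A2 call, 6 of 18 the GINS1 call and 9 of 17 the CDC45 call. Against the parental line their directions differed, since SLC3A2 and CDC45 rose by 0.61 and 0.45 and GINS1 fell by 0.57.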

How the results depend on the processing

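Of 12 alternatives and 6 fits without 1 array, leaving out probe sets with shared-probe suffixes moved the counts most, since only 25 genes of the segment were then tested: 13 were called for S1a, 13 for S1b and 14 for both isolates, against 27, 28 and 28, and GLG1 and C16orf95 turned to -0.12 and -0.048. The medians for S1a, S1b and both isolates were 0.39, 0.46 and 0.48 with no filter, 0.80, 0.68 and 0.76 with the filter at the 60th percentile, and 0.75, 0.81 and 0.91 after median centring. For S1a the median was 0.64 after quantile and 0.60 after cyclic loess normalization. For S1b and both isolates it was 0.57 and 0.64 with a pseudocount of 16, 0.56 and 0.54 for the mean of a gene's probe sets, and 0.59 and 0.58 without the shared-probe suffixes; for both isolates it was 0.69 after quantile normalization. Relative to the median of all genes, the segment was above it against the parental line in every setting.

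In S1b minus S1a, 1 gene, COTL1, was called with the filter at the 60th percentile, quantile normalization, cyclic loess normalization or array weights, and the median was -0.061 with that filter, -0.080 for the mean of probe sets and -0.061 without the suffixes. Partners called numbered 12 without the suffixes and 16 with no variance trend, against 25.

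Without 1 array, the calls ran from 20 to 27 for S1a, 23 to 27 for S1b, 26 to 28 for both isolates and 0 to 2 for S1b minus S1a, and the medians from 0.54 to 0.63, 0.56 to 0.62, 0.55 to 0.70 and -0.14 to -0.025. Partners called ran from 15 to 21. The causes of these shifts were not tested.

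Samples with the same replicate number did not deviate together (correlations of -0.005, -0.07 and -0.06), so they share only a number. With the replicate number as a block, 26, 27 and 28 genes were called for S1a, S1b and both isolates, 0 for S1b minus S1a, and 22 partners; the calls between the isolates for SLC3A2 (adjusted p = 0.0857), GINS1 (0.0563) and CDC45 (0.0828) were not made. Signals under 44.0 units limit what can be read for 15 genes.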
